A study of Mus musculus with 9 samples.

Results

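The alpha-defensin copies described here are the rows of the count tables with the symbols Defa3, Defa5, Defa17, Defa20, Defa21, Defa22, Defa23, Defa24, Defa26 and Defa30. These are 10 of 55341 genes counted, and a further 29 rows have symbols that start with Defa. The counts come from RNA sequencing of small-intestinal crypts from male mice on a C57BL/6 background, 8 to 12 weeks old, in which Pcgf6, which encodes a component of a Polycomb repressive complex, had been deleted or not. There were 9 libraries in 4 groups. Villin KO (n = 2) carried a Pcgf6 knockout induced with tamoxifen through CreERT2 under the Villin promoter, which is active across the intestinal epithelium, and Villin WT (n = 3) had the same driver and agent in its titles with a WT genotype. AhCre KO (n = 2) carried the knockout induced with beta-naphthoflavone (BNF) through AhCre, a Cre switched on by that agent, and AhCre WT (n = 2) was its BNF-treated WT group. The labels do not say whether WT mice carried the Pcgf6 alleles used for deletion, and they give the time after induction as 15 days in the titles and as 7 days elsewhere. A description of the Villin libraries names BNF where their titles and treatment labels name tamoxifen. Nothing in them ties each replicate to a mouse of its own, so the p-values rest on a spread between libraries that may be technical only.

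Alpha-defensins are small antimicrobial peptides with disulfide-bonded cysteines, stored in the granules of Paneth cells at the base of the small-intestinal crypt and released into its lumen. In the mouse they are made as precursors that the protease Mmp7 cleaves, and they act on bacteria by damaging their membranes. The mouse genome holds many recent copies of the gene side by side, and the copies differ mainly in the part that encodes the mature peptide.

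All 10 copies lie on the plus strand of a single cluster, chr8:21025545-21735471 in GRCm38, which spans 710 kb and holds 61 annotated rows. Each is annotated as protein-coding and shares no exon position with another gene. The coding sequences fall into groups. Defa3 and Defa17 have identical coding sequences (100% of bases), Defa21 and Defa22 share 99.3%, and Defa24 and Defa30 share 98.6%. Defa21 and Defa24 share only 80.4%. The last 108 coding bases, which hold most or all of the mature peptide and the stop codon, are printed for 1 or 2 copies of each group to show what separates copies that behaved differently below. They are read from the GENCODE M21 transcripts, capitals mark bases that differ from Defa24, or have no partner in it, in a pairwise alignment of the coding ends, and each end holds 6 cysteine codons (TGT or TGC).
Defa24 (chr8:21735270-21735377, + strand): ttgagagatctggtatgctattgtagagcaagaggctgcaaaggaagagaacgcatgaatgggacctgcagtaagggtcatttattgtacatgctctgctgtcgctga
Defa30 (chr8:21135396-21135503, + strand): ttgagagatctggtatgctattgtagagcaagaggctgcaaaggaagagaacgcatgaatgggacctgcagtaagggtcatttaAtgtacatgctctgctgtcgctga
Defa17 (chr8:21656534-21656641, + strand): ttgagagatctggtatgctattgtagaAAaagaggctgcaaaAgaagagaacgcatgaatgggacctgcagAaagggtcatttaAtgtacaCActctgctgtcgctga
Defa26 (chr8:21618775-21618882, + strand): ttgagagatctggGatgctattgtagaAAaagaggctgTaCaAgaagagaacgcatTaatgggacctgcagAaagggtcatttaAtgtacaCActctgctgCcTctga
Defa5 (chr8:21298174-21298281, + strand): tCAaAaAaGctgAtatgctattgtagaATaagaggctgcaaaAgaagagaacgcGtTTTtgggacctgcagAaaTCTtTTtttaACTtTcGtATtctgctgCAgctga
Defa20 (chr8:21510036-21510143, + strand): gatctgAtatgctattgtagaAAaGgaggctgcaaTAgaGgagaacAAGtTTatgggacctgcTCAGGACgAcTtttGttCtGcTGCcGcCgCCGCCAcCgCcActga
Defa21 (chr8:21026316-21026423, + strand): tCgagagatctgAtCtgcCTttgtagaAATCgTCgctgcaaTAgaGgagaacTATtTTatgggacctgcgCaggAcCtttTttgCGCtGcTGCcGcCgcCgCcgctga
Defa22 (chr8:21163048-21163155, + strand): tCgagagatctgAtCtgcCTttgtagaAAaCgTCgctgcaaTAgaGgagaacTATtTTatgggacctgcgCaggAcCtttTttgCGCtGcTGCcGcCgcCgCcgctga
Defa30 differed from Defa24 at 1 of these bases, Defa17 at 7, Defa26 at 13, Defa5 at 28, Defa20 at 38, Defa21 at 34 and Defa22 at 33. The end of Defa3, chr8:21288176-21288283, is the same as that of Defa17. Defa20 has 288 coding bases with the stop codon and the other 9 copies 282. Over the whole coding sequence Defa20 shares 81.6% with Defa24 and 89.9% with Defa22.

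This likeness limits what a count of a single copy means. A read of 50 bases could be placed in 1 gene only for 71.9% of the start positions along the Defa24 transcript, 59.8% along Defa26 and 47.6% along Defa30. The share was 27.1% for Defa21 and 25.1% for Defa22, whose shared windows were mostly shared with each other, 8.05% for Defa17, 7.76% for Defa3, 5.25% for Defa23, 0.306% for Defa5 and 0% for Defa20. With windows of 100 bases Defa24, Defa30 and Defa26 reached 98.9% to 100%, and Defa20 only 0.307%. The read length and the counting of reads with several matches being not given in the sources used here, the separate values of Defa3, Defa5, Defa17, Defa20 and Defa23 are uncertain. Reads could also be exchanged between Defa21 and Defa22. Their levels, fold changes and calls are therefore not independent of each other, and may be 1 measurement divided over both rows. Levels below are therefore also given as a sum over the 10 copies.

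Total counts were 7146764 and 8339149 in Villin KO, 6455098 to 7013456 in Villin WT, 10179884 and 9263993 in AhCre KO and 12377921 and 10645569 in AhCre WT. Pcgf6 itself was at 3.07 and 2.47 CPM (counts scaled to library size times TMM factor) in Villin KO, against 9.44 to 12.7 CPM in Villin WT, and at 7.20 and 5.90 CPM in AhCre KO, against 14.1 and 10.1 CPM in AhCre WT, so it went against no genotype label. The Villin libraries differed more among themselves than the AhCre libraries, and Villin KO 1 and Villin WT 2 had the lowest alpha-defensin sums. Results that rest on these libraries are given with and without them. As both were singled out by their defensin sums, values without them are a description and no independent test.

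The summed alpha-defensin level was higher in AhCre KO than in AhCre WT and overlapped between Villin KO and Villin WT. In AhCre KO the 10 copies summed to 5786 and 5993 CPM, against 3417 and 2987 CPM in AhCre WT. The KO sum was 1.84 times the WT sum (log2 ratio of the means 0.88), both KO libraries lay above both WT libraries, and the ratio stayed between 0.79 and 0.98 on the log2 scale with any 1 AhCre library left out. In Villin KO the sums were 1664 and 5522 CPM, against 6058, 1560 and 11031 CPM in Villin WT. The means were 3593 ± 2728 CPM in Villin KO and 6217 ± 4738 CPM in Villin WT (SD, n = 2 and 3), a log2 ratio of -0.79, with each KO library inside the range of the WT libraries. That ratio lay between -1.90 (without Villin KO 2) and -0.08 (without Villin WT 3) with 1 library left out, was -0.17 without Villin KO 1 and -1.25 without Villin WT 2, and was -0.63 without both Villin KO 1 and Villin WT 2. The copies took 0.114% to 0.887% of all counts of a library. A difference in the number of Paneth cells and a difference in defensin RNA per Paneth cell cannot be told apart in these bulk crypts.

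**Figure D1:**
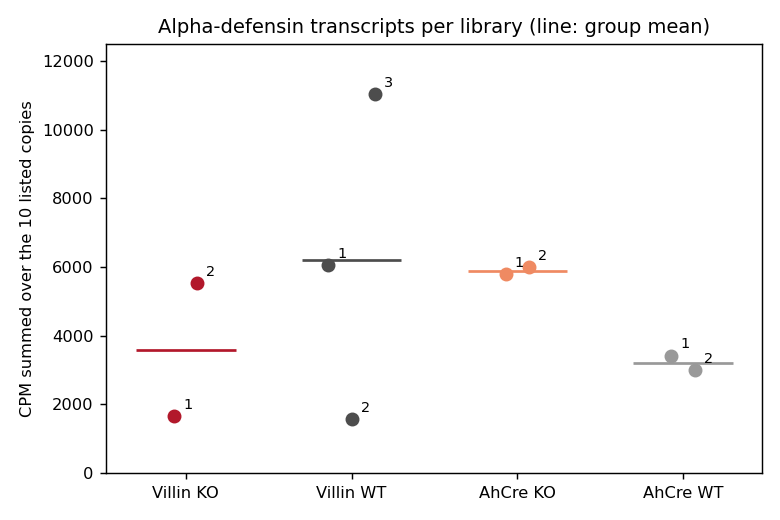
CPM summed over the 10 listed copies (vertical axis, linear from 0) for each library, with KO left of WT for each driver, replicate numbers beside the points and a line at the group mean. The AhCre KO points sit at 5786 and 5993 CPM, above the AhCre WT points at 3417 and 2987 CPM, while the Villin WT points run from 1560 to 11031 CPM and enclose both Villin KO points.

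In AhCre all 10 copies had both KO libraries above both WT libraries, which was so for 23.4% of all genes tested. Defa24, the most abundant copy, was at 2582 and 2562 CPM in AhCre KO, against 1623 and 1389 CPM in AhCre WT. Defa30 was at 1611 and 1643 CPM in AhCre KO, against 856 and 778 CPM in AhCre WT. For both copies the KO libraries lay closer together than the WT libraries, and the groups did not overlap.

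Defa21 was at 456.5 and 504.5 CPM in AhCre KO, against 289.9 and 248.8 CPM in AhCre WT. Defa22 was at 488 and 533 CPM in AhCre KO, against 271 and 236 CPM in AhCre WT. These 2 copies, with nearly the same coding sequence, thus had similar levels in each of the 4 libraries. Defa17 was at 279.6 and 308.9 CPM in AhCre KO, against 160.5 and 146.1 CPM in AhCre WT. Defa26 was at 203 and 263 CPM in AhCre KO, against 121 and 115 CPM in AhCre WT. For both, the gap between the groups was wider than the distance between libraries of either group. Defa3 was at 80.1 and 102 CPM in AhCre KO, against 46.0 and 50.9 CPM in AhCre WT. Defa5 was at 53.7 and 51.6 CPM in AhCre KO, against 30.7 and 22.3 CPM in AhCre WT. Defa20, at 29.99 and 25.3 CPM in AhCre KO and 17.8 and 0.149 CPM in AhCre WT, was the copy whose WT libraries did not resemble each other. Defa23 had 27 and 6 counts in AhCre KO, against 4 and 4 counts in AhCre WT, too few to be tested in the fit of all 9 libraries.

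**Figure D2:**
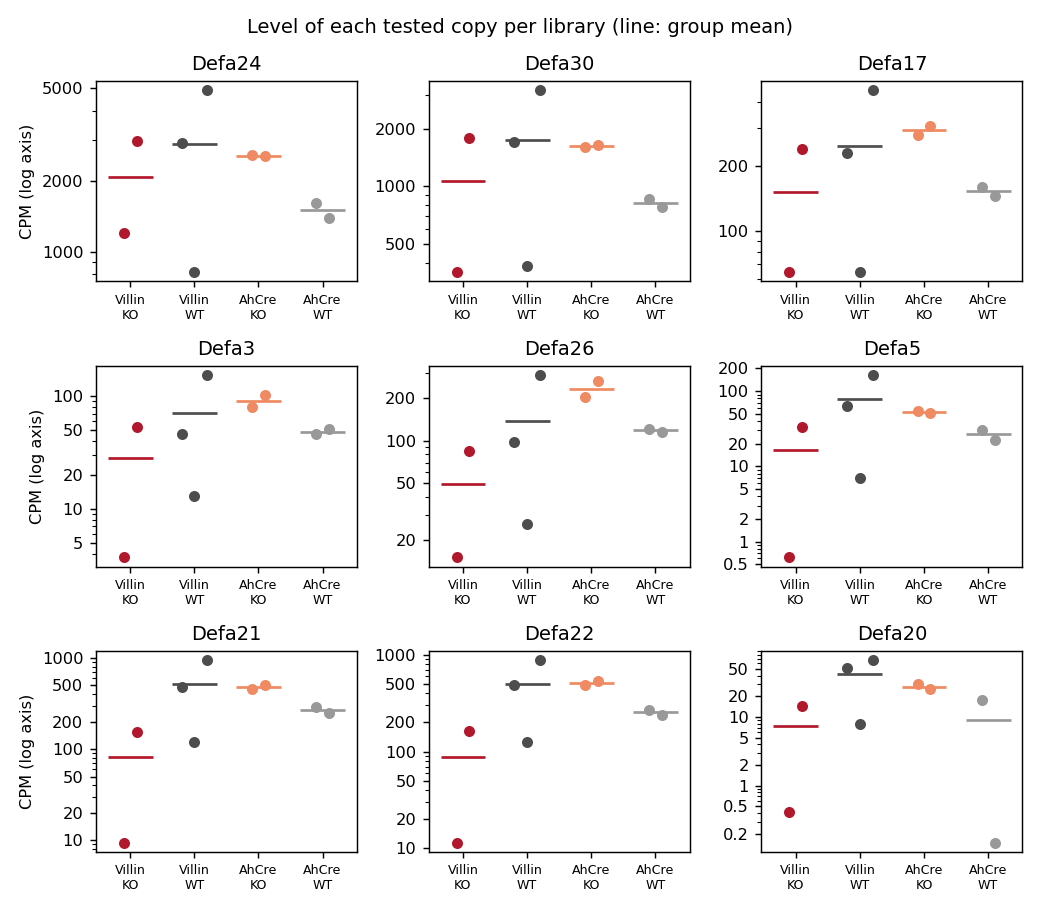
CPM of each of the 9 tested copies by library (vertical axes logarithmic, each with its own range), with KO left of WT for each driver and a line at the group mean. In AhCre every copy has both KO points above both WT points, whereas in Villin the points overlap for all 9 copies and Villin KO 1 is the lowest Villin library for every copy except Defa24.

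Whether these differences passed a test depended on which libraries set the spread. In the fit of all 9 libraries, with 1 spread estimated over the 4 groups, the 9 tested copies had log2 fold changes of 0.77 (Defa24) to 1.62 (Defa20) in AhCre, with a median of 0.98 against -0.0048 over all genes, and none was called (edgeR quasi-likelihood test, adjusted p = 1.0 for each, and 0 at an unadjusted p under 0.05). Of all genes 0.00615% were called there. DESeq2 and voom called none of the copies either. In the 4 AhCre libraries fitted alone, 8 of the 9 copies rose, and of all genes 6.43% were called and 3.62% were called as higher. Defa30 rose by 1.012 (SE 0.15, adjusted p = 0.000232 by edgeR), Defa22 by 1.03 (SE 0.15, adjusted p = 0.000281 by edgeR), Defa17 by 0.96 (adjusted p = 0.000585) and Defa26 by 1.00 (adjusted p = 0.000892). Defa21, Defa5, Defa3 and Defa24 rose by 0.85, 1.00, 0.93 and 0.79, with adjusted p of 0.00195 to 0.00326, so the 8 rises lay between 1.73-fold and 2.04-fold. Defa20 had a fold change of 1.61 (SE 0.65) that did not pass (adjusted p = 0.177). With 1 AhCre library left out of that fit, a lone sample is assumed to vary like the other group, and 6 to 10 copies rose. The copies called numbered 9 without AhCre KO 1, 10 without AhCre KO 2, 8 without AhCre WT 1 and 6 without AhCre WT 2, where 6.12%, 5.69%, 2.23% and 1.75% of all genes were called as higher. Tested were 9 copies without AhCre KO 1 and 10 without AhCre KO 2, AhCre WT 1 or AhCre WT 2. The copies called without AhCre KO 2 included Defa23. That call rests on 27 counts in AhCre KO 1, the lone KO library left, against 4 and 4 counts in AhCre WT. Defa3 lost its call without AhCre WT 1 (log2 fold change 0.86). Defa5 and Defa21 lost theirs without AhCre WT 2 (0.78 and 0.73). Defa20 passed without AhCre KO 1, AhCre KO 2 or AhCre WT 1. Without AhCre WT 1 its log2 fold change of 7.46 rests on 2 counts in AhCre WT 2, the lone WT library left.

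In Villin all 9 tested copies had negative fold changes, but none was called in the fit of all 9 libraries, where 6.21% of all genes were. The values ran from -0.46 (Defa24) to -2.63 (Defa21), with a median of -1.46 against -0.18 over all genes, and adjusted p from 0.110 to 0.657. For all 10 copies the KO and WT libraries overlapped, whereas 19.8% of genes tested had both Villin KO libraries below all Villin WT libraries. Defa24 was at 1203 and 2989 CPM in Villin KO, against 2912, 816 and 4917 CPM in Villin WT. Defa30 was at 356 and 1789 CPM in Villin KO, against 1696, 383 and 3179 CPM in Villin WT. In both copies Villin KO 2 lay near Villin WT 1, and the lowest libraries were Villin KO 1 and Villin WT 2.

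Defa21 and Defa22 had the most negative fold changes of the 9 copies. Defa21 was at 9.42 and 155 CPM in Villin KO, against 477, 118.5 and 937.9 CPM in Villin WT, and had a fold change of -2.63 (SE 0.96, unadjusted p = 0.0172, adjusted p = 0.110 by edgeR). Defa22 was at 11.5 and 165 CPM in Villin KO, against 485, 124 and 873 CPM in Villin WT, and had a fold change of -2.48 (SE 0.91, unadjusted p = 0.0183, adjusted p = 0.114 by edgeR). These were the 2 copies at an unadjusted p under 0.05, and Villin WT 2, the library with the lowest defensin sum, was the sole WT library below Villin KO 2. Without both Villin KO 1 and Villin WT 2, which leaves Villin KO 2 alone in its group and was chosen on the defensin sums themselves, the values were -2.05 for Defa21 and -1.90 for Defa22. These 2 copies alone were called in that fit, where 0.476% of all genes were called as lower. Without Villin KO 2, which leaves Villin KO 1 alone in its group, 4 copies fell, namely Defa3 (-4.26), Defa5 (-6.95), Defa21 (-5.77) and Defa22 (-5.43), where 5.15% of all genes were called as lower. Without Villin KO 1 none was called, against 0.0944% of all genes called as lower, with values of -1.70 for Defa21 (adjusted p = 0.286) and -1.57 for Defa22 (adjusted p = 0.300).

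In the less abundant copies other than Defa23, Villin KO 1 was again the lowest Villin library. Defa17 was at 64.1 and 240 CPM in Villin KO, against 231, 64.4 and 452 CPM in Villin WT. Defa26 was at 15.0 and 84.2 CPM in Villin KO, against 97.6, 25.7 and 289 CPM in Villin WT. Villin KO 1 was thus close to Villin WT 2 for Defa17 and below it for Defa26. Defa3 was at 3.69 and 52.9 CPM in Villin KO, against 46.2, 12.96 and 153.6 CPM in Villin WT. Defa5 was at 0.615 and 32.9 CPM in Villin KO, against 62.9, 7.055 and 162.4 CPM in Villin WT. Defa20 was at 0.410 and 14.35 CPM in Villin KO, against 51.2, 7.95 and 66.5 CPM in Villin WT. For these 3 copies Villin KO 1 had 18, 3 and 2 counts, and Villin KO 2 lay within the range of Villin WT. Defa23 had 1 and 1 counts in Villin KO, against 2, 0 and 2 counts in Villin WT. With no filter on low counts 6 copies fell in Villin (Defa3, Defa5, Defa20, Defa21, Defa22 and Defa26), where 1.62% of genes were called as lower. In the 5 Villin libraries fitted alone none was called, with a lowest adjusted p of 0.177, against 1.89% of genes called.

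**Figure D3:**
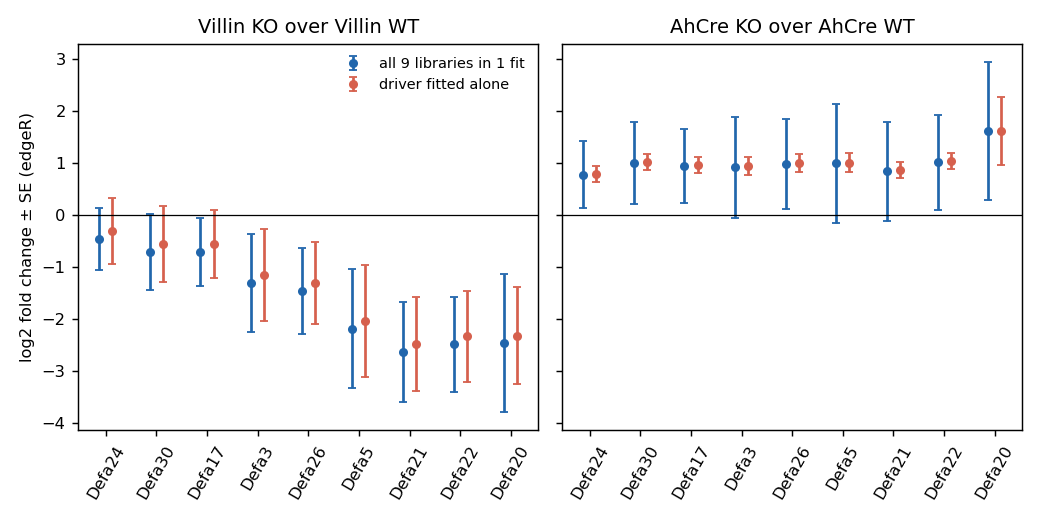
Log2 fold change of each tested copy, KO over WT (vertical axis, edgeR), with its standard error, in Villin (left) and AhCre (right), from the fit of all 9 libraries (blue) and from the libraries of that driver alone (red). The AhCre values are alike in both fits (0.77 to 1.62 against 0.79 to 1.61) but their standard errors are 0.64 to 1.33 in the fit of all libraries and, for the 8 copies that rose, 0.15 to 0.19 in the AhCre libraries alone.

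The KO effects of the drivers were compared directly. The KO effect in AhCre minus that in Villin was positive for all 9 copies, from 1.23 (Defa24) to 4.08 (Defa20), with a median of 2.44 against 0.18 over all genes. None was called by edgeR (adjusted p from 0.233 to 0.508), where 0.0738% of all genes were, and 3 were at an unadjusted p under 0.05 (Defa20, Defa21 and Defa22). DESeq2 called none. By voom Defa21 (4.18, adjusted p = 0.0465) and Defa22 (4.18, adjusted p = 0.0393) passed, where 0.105% of all genes were called as higher in AhCre. The same 2 copies passed by edgeR without Villin KO 2, against 1.07% of all genes, and without both Villin KO 1 and Villin WT 2, against 0.144%. By their titles the drivers also differed in inducing agent, and driver, agent and any batch of preparation cannot be told apart.

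The share of the alpha-defensin counts taken by Defa21 and Defa22 was alike in 7 of the 9 libraries and lower in Villin KO. Defa21 and Defa22 together took 1.26% of the counts of the 10 copies in Villin KO 1 (95% Wilson interval 1.04% to 1.52%) and 5.79% in Villin KO 2 (5.55% to 6.035%), against 15.9%, 15.6% and 16.4% in Villin WT. They took 16.3% and 17.3% in AhCre KO, against 16.4% and 16.2% in AhCre WT. Villin WT 2, whose summed level was as low as that of Villin KO 1, had a Defa21 and Defa22 share like that of the other WT libraries. Intervals on shares cover counting error only, and reads without molecular identifiers are not independent molecules.

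Defa24 took 72.3% and 54.1% of the copies' counts in Villin KO, against 44.6% to 52.3% in Villin WT, and 44.6% and 42.75% in AhCre KO, against 47.5% and 46.5% in AhCre WT. Defa17 had a share of 3.81% to 5.15% in all 9 libraries, and Defa30 took 21.4% and 32.4% in Villin KO, against 24.6% to 28.8% in Villin WT. The shares of the scarcer copies varied outside Villin KO too. Defa26 took 3.50% to 4.38% in AhCre and 1.61% to 2.62% in Villin WT, and over these 7 libraries Defa3 took 0.763% to 1.71% and Defa5 0.452% to 1.47%. In Villin KO, Defa26 took 0.899% and 1.525%. Defa20 took 0.0246% and 0.260% there, against 0.510% to 0.8455% in Villin WT and 0.00499% in AhCre WT 2. For both copies each Villin KO library thus lay below every Villin WT library, as for Defa21 and Defa22. Defa3 took 0.222% and 0.958% and Defa5 0.0369% and 0.595% in Villin KO, where only Villin KO 1 lay below Villin WT. The ratio of Defa21 plus Defa22 to Defa24 plus Defa30, chosen after the values were seen, was 0.0134 and 0.0669 in Villin KO, against 0.209, 0.203 and 0.224 in Villin WT. On the log2 scale it averaged -5.06 ± 1.64 in Villin KO and -2.24 ± 0.07 in Villin WT (SD, n = 2 and 3), a difference of -2.82 with no overlap. It averaged -2.08 ± 0.09 in AhCre KO and -2.15 ± 0.01 in AhCre WT (SD, n = 2 each), a difference of 0.07 with overlapping libraries. No test was made of a ratio picked in this way.

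**Figure D4:**
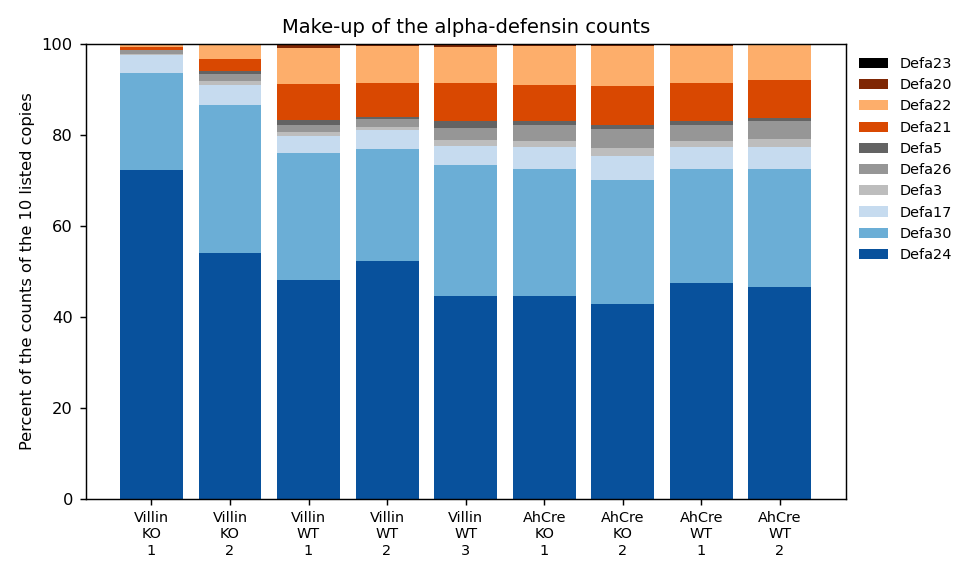
Percent of the counts of the 10 listed copies taken by each copy (stacked bars, vertical axis from 0 to 100), by library, with KO left of WT for each driver. The Defa21 and Defa22 segments are 1.26% and 5.79% in Villin KO and 15.6% to 17.3% in the other 7 libraries.

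A second departure concerned Defa20 in AhCre WT 2. Defa20 had 371 and 292 counts in AhCre KO and 2 counts in AhCre WT 2, against 275 in AhCre WT 1. The CPM ratio of AhCre WT 2 to AhCre WT 1 was 0.0084 (95% counting interval 0.00101 to 0.0306). Of the 23 rows of the cluster with at least 30 counts in each of the 3 other AhCre libraries, 4 had a ratio under 0.25, and they were looked for after the value of Defa20 was seen. Besides Defa20 these were Defa2 with 4 counts against 282 (0.0164), Defa32 with 1 against 161 (0.00717) and Gm7861 with 3 against 32 (0.108). The 4 rows lie within chr8:21378515-21594508, a stretch of 216 kb, while the 19 other rows had ratios of 0.605 to 1.30, the lowest of them, Defa-ps18, inside that stretch. Of the 50-base windows of Defa20, 86.7% are also in Defa32, so reads of either could be counted under the other, and none of the windows of Defa2 is in Defa2 alone. What sets these rows apart in AhCre WT 2 was not tested. Without Defa20 the summed log2 ratio in AhCre was 0.88, as with it.

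**Figure D5:**
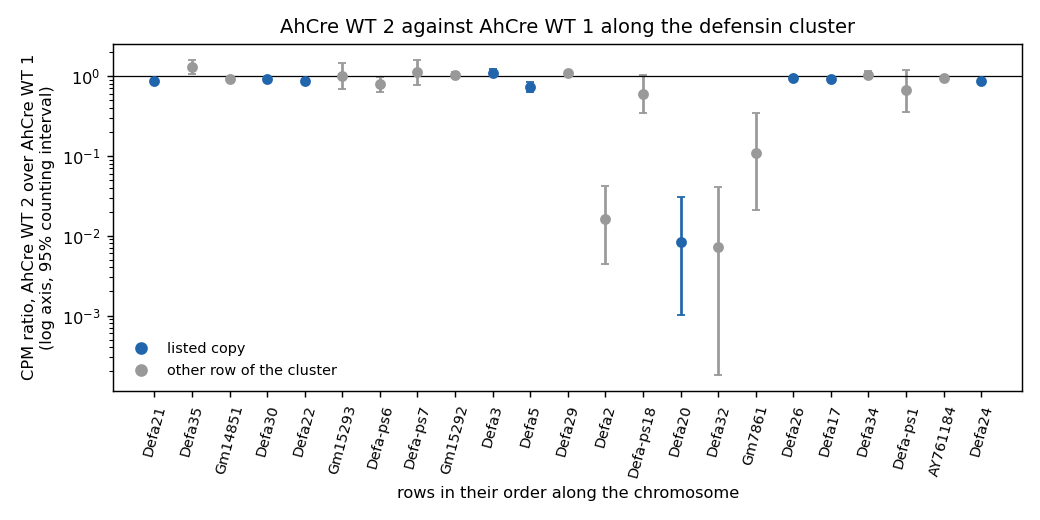
CPM ratio of AhCre WT 2 over AhCre WT 1 (vertical axis, logarithmic, with 95% counting intervals) for 23 rows in their order along the cluster, listed copies in blue and other rows in grey. Defa2, Defa20, Defa32 and Gm7861 sit at 0.00717 to 0.108, and the other 19 rows sit at 0.605 to 1.30.

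RefSeq promoters (GRCm38.p6, 250 bases before to 50 after the annotated start) matched 5 of the 10 copies, Defa20, Defa21, Defa22, Defa23 and Defa30. The 150 bases before the start are printed for Defa21, Defa20 and Defa30. The Defa21 promoter is identical to that of Defa22 over all 300 bases, and these copies had similar levels in every library. The Defa20 promoter is 97.7% identical to that of Defa21, and Defa20 had another profile in AhCre WT 2. Shared reads between Defa21 and Defa22, or Defa20 and Defa32, limit what these levels say of single copies. Defa30 goes with Defa24 by coding sequence, and its promoter is 65.8% identical to that of Defa21. The Defa30 window is offset, with TATAAA at base 190 against base 220 in Defa21. Unpaired ends count as differences, so this offset lowers the value. Capitals mark matches on either strand to TATAAA, the core of a TATA box, and to CTTTGA, a core of the sites of TCF factors, read here as TCAAAG.
Defa21 promoter (chr8:21025395-21025544, + strand): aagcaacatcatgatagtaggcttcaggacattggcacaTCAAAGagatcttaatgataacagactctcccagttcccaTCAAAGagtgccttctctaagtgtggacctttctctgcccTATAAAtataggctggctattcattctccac
Defa20 promoter (chr8:21509108-21509257, + strand): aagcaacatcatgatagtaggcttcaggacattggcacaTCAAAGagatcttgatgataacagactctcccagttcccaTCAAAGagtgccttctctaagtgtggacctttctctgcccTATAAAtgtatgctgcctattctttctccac
Defa30 promoter (chr8:21134500-21134649, + strand): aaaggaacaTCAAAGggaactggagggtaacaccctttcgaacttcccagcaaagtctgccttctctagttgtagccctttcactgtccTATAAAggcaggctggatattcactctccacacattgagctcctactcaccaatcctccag
Each of the 5 promoters held 1 TATAAA, a motif found in 13.6% of 32851 RefSeq promoters of the same length. CTTTGA occurred at 2 places in Defa20, Defa21, Defa22 and Defa23 and at 1 place in Defa30, and in 16.0% of all promoters at least once. The motifs do not overlap each other in these promoters. The matches describe letters and no factor was measured.

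Levels of different copies were compared per kilobase of exon, as mean CPM per kb over the 9 libraries. Defa24 was highest at 5567 ± 2987 and Defa30 followed at 3431 ± 2230 (SD, n = 9). Defa21 (850 ± 665) and Defa22 (845 ± 633) did not differ from each other beyond their spread, and Defa17 (545 ± 313) and Defa26 (362 ± 261) came next. Defa3 (149 ± 112) and Defa5 (125 ± 128) were again alike within their spread, and Defa20 (55.85 ± 53.25) and Defa23 (1.18 ± 1.59) were lowest. The gap to the next copy was smaller than the SD of the higher copy except below Defa30 and Defa20. These SDs hold differences between libraries that the copies share, and Defa24 was above Defa30 in each of the 9 libraries. In AhCre KO, Defa24 was at 6139 ± 34.3, Defa30 at 4087 ± 56.8 and Defa22 at 1219 ± 75.6 CPM per kb (SD, n = 2), and these 3 levels were farther apart than their spread. In Villin KO, Defa17 ranked next after Defa24 and Defa30, at 383 ± 313 CPM per kb, ahead of Defa22 at 210.3 ± 259 and Defa21 at 196.5 ± 246. These means lay within the spread between libraries. Within each library Defa17 was above Defa22, at 161.5 against 27.4 CPM per kb in Villin KO 1 and 604 against 393 in Villin KO 2.

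The WT crypts of the lines were also set side by side. In AhCre WT the summed level was 3202 ± 304 CPM, and in Villin WT 6217 ± 4738 CPM (SD, n = 2 and 3), with both AhCre WT libraries inside the range of Villin WT. All 9 tested copies had negative values in AhCre WT against Villin WT, from -2.21 (Defa20) to -0.22 (Defa26), and none was called (adjusted p from 0.270 to 0.877 by edgeR, 0 at an unadjusted p under 0.05), against 7.58% of all genes. Without both Villin KO 1 and Villin WT 2 the test called 6 copies as lower in AhCre WT, with Defa24 at -1.33 and Defa30 at -1.52, where 15.2% of all genes were called as lower. Leaving out Villin WT 2, the Villin WT library with the lowest sum, raises the Villin WT mean by construction.

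Other Paneth cell genes gave the setting of these values. Lyz1, the Paneth granule lysozyme, was at 115.5 and 2514 CPM in Villin KO, against 2577, 631 and 4995 CPM in Villin WT, and at 3592 and 3798 CPM in AhCre KO, against 2878 and 2553 CPM in AhCre WT. Mmp7, the protease that processes mouse alpha-defensins, was at 11.7 and 140.5 CPM in Villin KO, against 177, 30.8 and 550 CPM in Villin WT, and at 173 and 236 CPM in AhCre KO, against 132.2 and 122.5 CPM in AhCre WT. Neither was called by edgeR on all libraries in Villin (-1.06, adjusted p = 0.506, and -1.73, adjusted p = 0.293) or in AhCre (0.44 and 0.69, adjusted p = 1.0 for each). Both were lowest in Villin KO 1 among the Villin libraries, as most defensin copies were. Among other Paneth granule products, Pla2g2a and Reg3g were also lowest there. Ang4 (1328 CPM), Mptx1 (116 CPM), Clps (240 CPM) and Pnliprp2 (556 CPM) were instead highest in Villin KO 1, and Itln1 and Mptx2 were neither. Of the 24 genes of the Paneth list, which holds no defensin, 2 rose, 2 fell and 20 did not pass in Villin, with a median of -0.58. There 6.21% of all genes were called. Pnliprp2, a pancreatic lipase-related protein, rose by 3.43 and Slc30a2, a zinc transporter, by 1.38, while Ephb3, a receptor that positions Paneth cells, fell by 2.44 and Kcnn4, a potassium channel, by 2.17 (adjusted p of 0.0115 to 0.0482). In the Villin libraries fitted alone 22 of the list were tested, Pnliprp2 rose and none fell, against 1.89% of all genes called. In AhCre none of the 24 passed on all libraries (median 0.49), and 8 rose in the AhCre libraries alone, namely Ang4, Clps, Itln1, Mmp7, Mptx1, Mptx2, Pnliprp2 and Spdef. In that fit 3.62% of all genes were called as higher. Lyz1 and Reg3g did not pass there, and Reg3g was lower in both AhCre KO libraries. The defensin copies were thus not the only Paneth genes at higher levels in AhCre KO.

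Summed levels of marker lists for Paneth and other cell types are given beside the defensins, and no gene of these lists was called in AhCre in the fit of all 9 libraries. The 24 Paneth genes summed to 4744 and 10199 CPM in Villin KO, against 2745 to 18428 CPM in Villin WT, and to 13380 and 14398 CPM in AhCre KO, against 8502 and 7837 CPM in AhCre WT. All Paneth markers had counts in every library except Copz2, which was at 0 in both Villin KO libraries. The 8 absorptive enterocyte markers summed to 53833 and 37921 CPM in Villin KO, against 17213 to 30770 CPM in Villin WT, and to 7299 and 7358 CPM in AhCre KO, against 9014 and 7822 CPM in AhCre WT. The 4 distal small-intestinal markers summed to 113 CPM in Villin KO 1 and 1121 CPM in Villin KO 2, against 641 to 3095 CPM in Villin WT, and to 1188 and 1429 CPM in AhCre KO, against 1100 and 1081 CPM in AhCre WT. The 4 proximal markers summed to 1093 and 792 CPM in Villin KO, against 532 to 563 CPM in Villin WT, and to 382 and 325 CPM in AhCre KO, against 634 and 650 CPM in AhCre WT. In both drivers the distal and proximal sums thus stood in opposite order between KO and WT means, and Villin KO 1 had the lowest distal and the highest proximal sum of the 9 libraries. Sums weigh abundant genes most, and no gene of either list was called in either driver. In Villin the median log2 fold change was 0.06 for the proximal markers (3 positive, 1 negative) and -0.47 for the distal ones (1 positive, 3 negative). In AhCre it was -0.77 for the proximal markers (4 negative) and 0.43 for the distal ones (3 positive, 1 negative). The 8 goblet cell markers summed to 8104 and 7327 CPM in Villin KO, against 3448 to 12189 CPM in Villin WT, and to 7495 and 7445 CPM in AhCre KO, against 6930 and 7676 CPM in AhCre WT. The 8 tuft cell markers summed to 1739 and 243 CPM in Villin KO, against 51.1 to 57.0 CPM in Villin WT, and to 716.5 and 621 CPM in AhCre KO, against 118 and 132 CPM in AhCre WT. All 8 tuft cell markers rose in Villin, as did 4 of the 8 enterocyte markers, where 6.21% of all genes were called, higher or lower. Also rising in Villin were 2 of the 6 stromal markers and 1 of the 8 goblet cell markers. Of the 6 neutrophil and macrophage markers tested, 1 rose. The 7 crypt base stem cell markers, of which 3 fell in Villin, summed to 484 and 1547 CPM in Villin KO, against 1041 to 2483 CPM in Villin WT, and to 2473 and 2536 CPM in AhCre KO, against 2450 and 1879 CPM in AhCre WT. The 6 proliferation markers, of which 1 fell in Villin, summed to 148 and 355 CPM in Villin KO, against 570.1 to 603 CPM in Villin WT, and to 650.4 and 749 CPM in AhCre KO, against 708 and 639 CPM in AhCre WT. The groups did not overlap in Villin for this list. The 6 stromal markers summed to 179 and 207 CPM in Villin KO, against 25.4 to 186 CPM in Villin WT, and to 70.1 and 73.9 CPM in AhCre KO, against 158 and 163 CPM in AhCre WT. The 8 neutrophil and macrophage markers summed to 76.6 and 678 CPM in Villin KO, against 8.08 to 81.6 CPM in Villin WT, and to 54.9 and 68.9 CPM in AhCre KO, against 125 and 132 CPM in AhCre WT. Both lists were thus lower in AhCre KO with no overlap, where the defensin copies were higher, and of these markers Cxcr2, Csf3r, S100a9 and Pdgfra were at 0 in at least 1 library. The 6 enteroendocrine markers summed to 395 and 467 CPM in Villin KO, against 134 to 477 CPM in Villin WT, and to 400.3 and 439 CPM in AhCre KO, against 529 and 510.5 CPM in AhCre WT. The part of any of these in the defensin values was not tested.

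The genes whose pattern over the 9 libraries was nearest to that of the summed copies were found by the root mean square difference of centred log2(CPM + 0.5), among 8898 genes with a mean of at least 10 CPM. They were Agr2, a protein disulfide isomerase of secretory cells (0.26), Snrpg, a core protein of the spliceosome (0.35), Hspe1, a mitochondrial chaperonin (0.37), Fxyd3, a regulator of the sodium pump (0.37), and the chemokine Ccl6 (0.39). These 5 were picked as the nearest. Agr2 and Ccl6 are among the goblet cell markers summed above. Of the Paneth list, Nupr1 was at 0.43 (rank 12), Mmp7 at 0.78 (rank 852) and Lyz1 at 1.02 (rank 3795) on the same measure. Ang4 (rank 8106), Mptx2 (rank 8523), Pnliprp2 (rank 8807) and Mptx1 (rank 8831) were among the farthest of the 8898 genes. All values share the libraries and their scaling.

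Of the 29 further rows with a Defa symbol, 4 had no count and 19 had fewer than 100 counts in all, and together they held 7.41% of the counts of all Defa rows. The most abundant was Defa29, at 1.64 and 86.7 CPM in Villin KO, against 381, 59.1 and 524 CPM in Villin WT, and at 150 and 172 CPM in AhCre KO, against 173.8 and 190.5 CPM in AhCre WT. In Villin, Defa29 resembled Defa21 and Defa22 (-2.85, SE 1.11, adjusted p = 0.130 by edgeR), and in AhCre its KO libraries lay below its WT libraries (-0.18, adjusted p = 1.0), unlike those of the 10 listed copies. A pair of cluster rows chosen after their values were seen, Gm14851 and AY761184, which RefSeq names Defa38 and Defa39, were more abundant than Defa21 in all 9 libraries. Gm14851 was at 59.0 and 940 CPM in Villin KO, against 851, 203 and 1358 CPM in Villin WT, and at 728 and 772 CPM in AhCre KO, against 584 and 541 CPM in AhCre WT. AY761184 was at 61.05 and 1105 CPM in Villin KO, against 764, 177 and 1796 CPM in Villin WT, and at 722 and 820 CPM in AhCre KO, against 648 and 612 CPM in AhCre WT. Both had their lowest value in Villin KO 1 and neither was called in Villin (adjusted p = 0.648 and 0.697 by edgeR) or in AhCre (adjusted p = 1.0 for each).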

How the data were processed

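Crypt RNA (2 ng per library) was sequenced with Smart-seq2, per the labels' protocols. The authors deposited 1 table per library of unscaled read counts per gene. The tools named in the submitters' processing notes are STAR 2.7, featureCounts and DESeq2 1.20, with mm10 and GRCm38 as builds. Annotation, strand setting and the counting of reads with several matches: not given in the sources used here. Coordinates and transcripts came from GENCODE M21 (GRCm38), which held every row name. Total counts were 6455098 to 12377921 per library.

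Groups followed driver and genotype in the titles. Counts were analysed with edgeR 4.0.16 in R 4.3.3: filterByExpr kept 16250 of 55341 genes (9 of the 10 copies), TMM factors scaled libraries, and the 9 libraries entered a single quasi-likelihood model of group means (5 residual degrees of freedom, 7.43 from the prior, and a biological coefficient of variation of 0.332). P-values were adjusted by Benjamini-Hochberg over all genes tested and called under 0.05. CPM are counts over library size times TMM factor, and sums over copies were not tested. The fit of all 9 libraries was run on simulated counts. These had the same spread for every gene and group, lower than that estimated here. The fits of each driver alone were not checked in this way. Sequence comparisons used Biopython 1.88.

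The members, gene lists and tests were chosen with earlier results of these data known. Named were all listed copies, Pcgf6, Lyz1 and Mmp7, up to 4 called Paneth genes, the most abundant other Defa row, and the 5 genes nearest in pattern. Exceptions are said to be chosen after their values were seen. Alternatives tried were no low-count filter, a minimum of 1 CPM in 4 libraries, scaling by DESeq2 size factors, DESeq2 1.42.0 (Wald test), voom with quality weights (limma 3.58.1), each driver alone, a replicate block and each library left out. Chosen once the data had been seen were a block with crossed AhCre numbers, fits without both Villin KO 1 and Villin WT 2, AhCre alone with each library left out, and the sum without Defa20.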

Additional observations from a re-analysis of the deposited data

How the results depend on the processing

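The count of copies called was 0 in each comparison. In Villin it was 6 with no low-count filter, 0 to 4 with 1 library left out (4 without Villin KO 2) and 2 without both Villin KO 1 and Villin WT 2. In AhCre it was 8 with AhCre alone, and 6 to 10 in that fit with 1 AhCre library left out (6 without AhCre WT 2, 9 without AhCre KO 1). For the difference of the KO effects it was 6 with no low-count filter, 0 to 2 with 1 library left out (2 without Villin KO 2), 2 without both libraries and 2 by voom. For AhCre WT against Villin WT it was 2 with no low-count filter, 0 to 1 with 1 library left out (1 without Villin WT 2) and 6 without both libraries. Both libraries were picked for their low defensin sums, so the counts without them are no independent test. The share of all genes called with no low-count filter is not given here for the difference of the KO effects. Nor is it given for AhCre WT against Villin WT with no filter or without Villin WT 2. Those counts of copies therefore cannot be set against all genes. DESeq2, DESeq2 size factors and the 1 CPM filter left every count at 0. Over all settings 9 or 10 copies were tested, as Defa23 was tested in some only. Where a count moved, the cause was not tested beyond the change in libraries itself.

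The replicate block and its crossed form called no copy. Deviations of same-numbered libraries from their group means correlated at 0.06 and -0.22 in Villin and at -0.11 in AhCre. In a group of 2 libraries these deviations mirror each other. The check therefore cannot tell whether the numbers pair the samples. With the block, Defa17 in Villin was at 0.0303, Defa24 in Villin at 0.30 and Defa26 between WT groups at 0.155, and with crossed AhCre numbers at 0.03045, 0.30 and 0.153. Defa26 between WT groups was at 0.23 by voom. With 1 library left out, values ran in Villin from -1.97 to 0.0465 for Defa17, -1.27 to 0.17 for Defa24 and -2.31 to 0.0478 for Defa30, positive without Villin WT 3 and, for Defa24 and Defa30, without Villin KO 1. Between WT groups they ran from -0.99 to 0.72 for Defa3, -1.11 to 0.0505 for Defa17 and -0.66 to 0.94 for Defa26, positive without Villin WT 3. The other values kept their direction, with 309 of 324 left-out values and 269 of 342 values of other settings also on the same side of the threshold. The summed copies kept their direction in every setting. Few counts in Villin KO 1 (2 to 18 for Defa3, Defa5 and Defa20) limit what could be detected there.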
